A study of Mus musculus with 16 samples.

Results

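The genes described here are 10 genes of the hepatic response to PPARα, of 52143 genes in the table. They are the fatty acid ω-hydroxylases *Cyp4a10*, *Cyp4a14*, *Cyp4a31* and *Cyp4a32*, together with *Pdk4*, *Angptl4*, *Vnn1*, *Acot1*, *Pex11a* and *Ppargc1a*. They were chosen by name, as known PPARα response genes and their Cyp4a relatives. The rule uses no measured value of these data, but earlier results of these data were known when the genes were chosen. All 10 passed the filter on low counts, which left 11324 genes for testing. Liver RNA was sequenced from 16 male C57BL6/J mice in 4 groups of 4. The mice were 6 weeks old when they were placed on chow or on a high-fat diet (HFD, 60% fat), and stayed on it for 12 weeks. Every 2 weeks they were given saline or an siRNA (3 mg/kg) that targets *Fgfr4*, the receptor through which the gut hormone FGF15 acts on hepatocytes. The groups were Chow (saline), Chow/FGFR4 KD (siRNA), HFD (saline) and HFD/FGFR4 KD (siRNA). The siRNA carried N-acetylgalactosamine, which directs it to hepatocytes. Control mice received no control siRNA, so an effect of siRNA as such and an effect of the knockdown (KD) cannot be told apart. Mice were housed 4 to a cage, and which cage held which mouse was not given in the sources used here, nor were the feeding state and the hour at which livers were taken.

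PPARα is a nuclear receptor that is activated by fatty acids and binds DNA together with RXR. In the liver it turns on genes for the uptake, transport and oxidation of fatty acids in mitochondria and peroxisomes, for ketone synthesis and for ω-hydroxylation by Cyp4a enzymes, most of all during fasting. Several of its target genes are also driven by other fasting signals, among them glucagon acting through CREB, FOXO1 and glucocorticoids.

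Total counts per library ran from 3445949 to 5976449. *Fgfr4*, the siRNA target, was between 21.8 and 36.3 CPM (counts scaled to library size with TMM factors) in the 8 saline libraries and between 2.43 and 6.17 CPM in the 8 siRNA libraries, which did not overlap. The summed level of 7 hepatocyte markers was from 54720 to 74450 CPM in all libraries, and skeletal muscle markers summed to at most 0.41 CPM. A library stood apart from its group. On the first principal component of the 500 most variable genes, on which the other 15 libraries separated by diet, HFD/FGFR4 KD 1 scored -6.33, within the chow libraries (-23.2 to -4.84), whereas HFD/FGFR4 KD 2 to 4 had scores between 16.7 and 20.6. Changes of the 10 genes that rest on HFD/FGFR4 KD 1 are therefore given with it and without it. By correlation with the mean of the rest of its group, Chow/FGFR4 KD 4 was lower (0.967) than HFD/FGFR4 KD 1 (0.969). Chow/FGFR4 KD 4 was left out only among the alternatives. In RNA from whole liver, fewer cells of a type and less RNA per cell cannot be told apart.

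*Cyp4a10* (ENSMUSG00000066072; chr4:115518264-115533649, plus strand), *Cyp4a31* (ENSMUSG00000028712; chr4:115563649-115579015, plus strand) and *Cyp4a32* (ENSMUSG00000063929; chr4:115600969-115621602, plus strand) lie next to *Cyp4a14* (ENSMUSG00000028715; chr4:115486200-115496142, minus strand) in a cluster of GRCm38, the genome build of the files. All are protein-coding. Their sequences are shown because they set how well the counts of these enzymes can be told apart. Over 1530 coding bases, 97.2% were identical between *Cyp4a10* and *Cyp4a32* and 96.6% between *Cyp4a10* and *Cyp4a31*, against 76.8% of 1511 aligned bases between *Cyp4a10* and *Cyp4a14*. Around the codon of the cysteine that holds the heme, 63 coding bases (1336 to 1398 in *Cyp4a10*) were the same in *Cyp4a10*, *Cyp4a31* and *Cyp4a32*. *Cyp4a14* differed at 8 of these bases, which are in capitals:
Cyp4a10: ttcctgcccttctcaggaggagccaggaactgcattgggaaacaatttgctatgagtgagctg
Cyp4a14: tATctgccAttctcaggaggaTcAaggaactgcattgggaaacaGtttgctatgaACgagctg

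The 63 bases in which the 3 near copies differed most (coding bases 199 to 261) held 10 positions that were not the same in all 3, again in capitals, and even there *Cyp4a31* differed from *Cyp4a10* at 2 bases:
Cyp4a10: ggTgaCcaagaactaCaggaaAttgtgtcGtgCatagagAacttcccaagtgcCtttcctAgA
Cyp4a31: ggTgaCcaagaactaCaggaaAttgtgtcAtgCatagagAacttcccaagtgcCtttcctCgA
Cyp4a32: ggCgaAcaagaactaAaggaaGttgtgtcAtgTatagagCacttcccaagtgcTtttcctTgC

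Of the 31-base words in the GENCODE M21 transcripts of *Cyp4a32*, 62.8% also occurred in transcripts of other genes, and the share was 44.9% for *Cyp4a10*, 32% for *Cyp4a31* and 1.99% for *Cyp4a14*. For *Acot1* it was 22.8%, mostly with the neighbouring thioesterase *Acot2*. The other 5 genes had at most 1.84%. Estimated counts of reads that could not be divided need not be whole, and *Cyp4a14*, *Angptl4*, *Vnn1* and *Pex11a* had whole counts in all 16 libraries, whereas *Cyp4a10*, *Cyp4a31*, *Cyp4a32*, *Pdk4* and *Acot1* had whole counts in none. The split of reads among *Cyp4a10*, *Cyp4a31* and *Cyp4a32*, and between *Acot1* and *Acot2*, is thus an estimate, and their separate values are less certain than that of *Cyp4a14*.

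**Figure D1:**
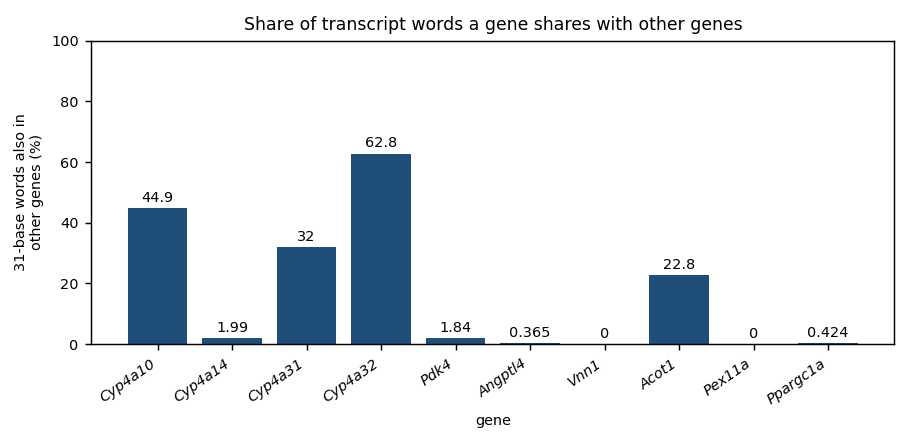
Bars show, for each of the 10 genes, the percentage of 31-base words of its transcripts that also occur in transcripts of other genes. *Cyp4a32* (62.8%), *Cyp4a10* (44.9%), *Cyp4a31* (32%) and *Acot1* (22.8%) stand above the other 6 genes, which reach 1.99% at most.

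PPARα and RXR bind a direct repeat of AGGTCA with 1 base between the repeats. Promoter sequences (RefSeq, GRCm38.p6, from 250 bases before to 50 bases after the start) were found for 5 of the 10 genes, *Cyp4a32*, *Pdk4*, *Acot1*, *Pex11a* and *Ppargc1a*. The letters AGGTCANAGGTCA on either strand were found in none of these 5 windows and in 0.0396% of 32851 promoters, and the looser AGGNCANAGGNCA in none of the 5 and in 0.381% of all. This says only that these letters are not in these windows.

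Levels were compared between genes per kilobase of exonic length. In Chow, *Cyp4a10* was highest at 74.7 ± 18.9 CPM per kb (mean ± SD, n = 4 here and below), followed by *Cyp4a14* at 51.2 ± 42.6, *Angptl4* at 50.2 ± 6.85 and *Pex11a* at 26 ± 4.27. *Vnn1* (15.1 ± 7.94) and *Cyp4a32* (15 ± 6.04) came next, and *Acot1* (7.82 ± 1.64), *Pdk4* (4.02 ± 1.61), *Cyp4a31* (1.84 ± 0.66) and *Ppargc1a* (1.11 ± 0.21) were low. Mean ± SD overlapped between all neighbours in this order except *Angptl4* and *Pex11a*, and *Acot1* and *Pdk4*. In HFD the order of the means changed at the top. *Cyp4a14* was at 152 ± 60.4, *Cyp4a10* at 133 ± 8.56 and *Vnn1* at 47.4 ± 8.83 CPM per kb. *Pex11a* followed at 35.1 ± 4.79 and *Angptl4* at 29 ± 5.95. Mean ± SD overlapped between *Cyp4a14* and *Cyp4a10*, between *Vnn1* and *Pex11a*, and between *Pex11a* and *Angptl4*. Within groups *Cyp4a14* had a coefficient of variation from 39.8% in HFD to 110% in Chow/FGFR4 KD, the highest of the 10 genes in each group but HFD, where that of *Pdk4* was 81.9%.

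**Figure D2:**
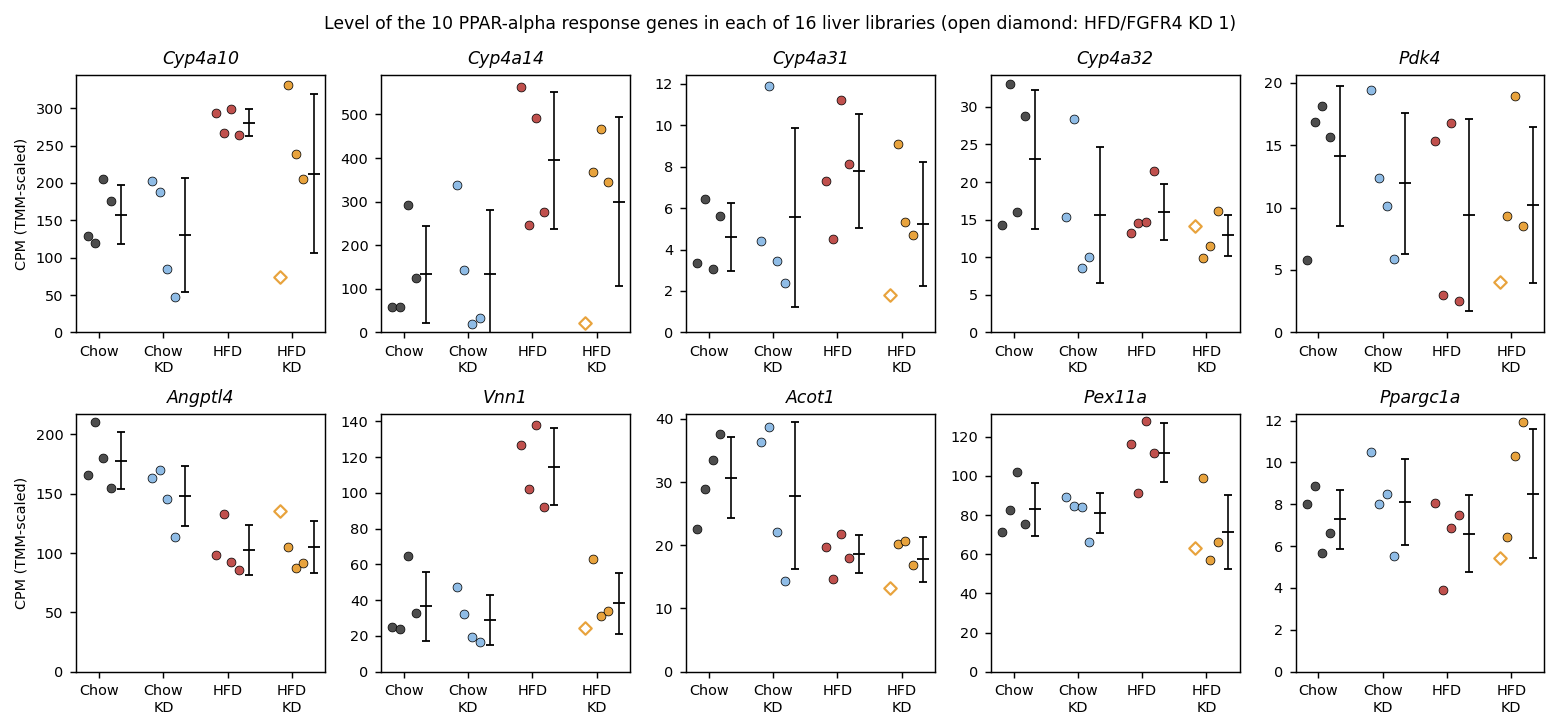
Each panel shows a gene's level in CPM (linear axis from 0) in the 16 libraries by group, with the group mean ± SD beside the points (n = 4, bars cut at 0) and HFD/FGFR4 KD 1 as an open diamond. *Vnn1* is high in all 4 HFD libraries (91.9 to 138 CPM) and nowhere else, while *Cyp4a10* and *Cyp4a14* are low in HFD/FGFR4 KD 1 (73.7 and 21 CPM) compared with the rest of its group.

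The first comparison asked what FGFR4 KD did to these genes in mice on HFD. A pair of the 10 fell, *Vnn1* and *Pex11a*, and none rose. The 4 Cyp4a genes, *Pdk4*, *Angptl4*, *Acot1* and *Ppargc1a* did not pass the test. Calls follow the threshold of the study, which is an unadjusted p under 0.05 together with an adjusted p (Benjamini-Hochberg, over all tested genes) under 0.25, here from limma-voom. By this rule 3.14% of all 11324 genes were called (1.50% higher and 1.64% lower), against 2 of 10 here. The median log2 change of the 10 genes was -0.45, and that of all genes was 0.00354.

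*Vnn1* (ENSMUSG00000037440; chr10:23894688-23905343, plus strand) encodes vanin-1, a pantetheinase that releases cysteamine and pantothenic acid. Its levels were 126.7, 102.0, 138.0 and 91.9 CPM in HFD 1 to 4, and 24.3, 63.1, 31.4 and 33.9 CPM in HFD/FGFR4 KD 1 to 4. All 4 siRNA libraries lay below all 4 saline libraries, which was so for 6.49% of all genes in either direction, and they lay near the Chow level (23.7 to 64.7 CPM). *Vnn1* fell 3.17-fold, a change of -1.67 on the log2 scale (SE 0.315; adjusted p 0.0428 in limma-voom), and was the only gene of the 10 past an adjusted p of 0.05 in this comparison, where 31 of all genes were. Without HFD/FGFR4 KD 1 the change was -1.49 (SE 0.329, adjusted p 0.115), so the call held, among 1.21% of genes called in that fit.

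*Pex11a* (ENSMUSG00000030545; chr7:79735957-79743131, minus strand) encodes a membrane protein that elongates peroxisomes before they divide. It was at 116.4, 91.4, 127.9 and 111.7 CPM in HFD and at 63.3, 98.7, 56.8 and 66.3 CPM in HFD/FGFR4 KD. The groups overlapped through HFD/FGFR4 KD 2, which lay above HFD 2. *Pex11a* fell 1.60-fold, a change of -0.68 on the log2 scale (SE 0.159; adjusted p 0.0904 in limma-voom), and by 0.63 without HFD/FGFR4 KD 1 (SE 0.174, adjusted p 0.221). The call was lost when HFD 3 or HFD/FGFR4 KD 3 was left out, with an adjusted p up to 0.269.

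The Cyp4a enzymes start the ω-oxidation of fatty acids in the endoplasmic reticulum, and *Cyp4a14* and *Cyp4a10* are common readouts of PPARα in mouse liver. *Cyp4a10* was at 293.9, 266.3, 299.0 and 264.6 CPM in HFD and at 73.7, 331.0, 238.8 and 205.9 CPM in HFD/FGFR4 KD. *Cyp4a14* was at 562.8, 245.7, 493.0 and 276.8 CPM in HFD and at 21, 368.9, 466.4 and 344.8 CPM in HFD/FGFR4 KD. In both genes HFD/FGFR4 KD 1 was far below the other libraries of its group, and for *Cyp4a14* the other 3 lay within the range of the saline libraries. The log2 change of *Cyp4a14* was -0.98 (95% interval -2.90 to 0.94, limma-voom adjusted p 0.758) with this library and 0.07 (-1.45 to 1.60, adjusted p 0.987) without it. For *Cyp4a10* the values were -0.59 (-1.49 to 0.30, adjusted p 0.664) and -0.15 (-0.91 to 0.62, adjusted p 0.947). The sum of the 4 Cyp4a genes, which does not depend on how reads were divided among them, was 699 ± 174 CPM in HFD and 531 ± 289 CPM in HFD/FGFR4 KD, with HFD/FGFR4 KD 1 at 110.6 CPM and the other 3 between 571.6 and 722.0 CPM. *Cyp4a31* and *Cyp4a32* were low, with group means of at most 7.80 and 23 CPM, and had log2 changes of -0.69 and -0.30 (adjusted p 0.604 and 0.793), and of -0.27 and -0.36 without HFD/FGFR4 KD 1.

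Among the genes for fuel use, *Pdk4* (ENSMUSG00000019577; chr6:5483351-5496309, minus strand), a kinase that shuts pyruvate dehydrogenase during fasting, was at 15.3, 3.03, 16.8 and 2.48 CPM in HFD and at 4.04, 9.32, 18.9 and 8.55 CPM in HFD/FGFR4 KD, and no difference between these groups was detectable (log2 change 0.36, 95% interval -0.97 to 1.69). *Angptl4* (ENSMUSG00000002289; chr17:33773750-33781830, minus strand), a secreted inhibitor of lipoprotein lipase, was at 102.6 ± 21.1 CPM in HFD and 104.9 ± 21.9 CPM with KD (0.03, -0.32 to 0.37). *Acot1* (ENSMUSG00000072949; chr12:84009490-84018371, plus strand), a cytosolic acyl-CoA thioesterase, was at 18.6 ± 2.99 and 17.8 ± 3.50 CPM (-0.06, -0.63 to 0.51). The coactivator gene *Ppargc1a* (ENSMUSG00000029167; chr5:51454250-51567726, minus strand) was at 6.58 ± 1.84 and 8.51 ± 3.09 CPM (0.35, -0.22 to 0.92). Without HFD/FGFR4 KD 1 the log2 changes were 0.74 for *Pdk4*, -0.10 for *Angptl4*, 0.07 for *Acot1* and 0.54 for *Ppargc1a*, none of them called, and those of *Angptl4* and *Acot1* had turned in sign.

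**Figure D3:**
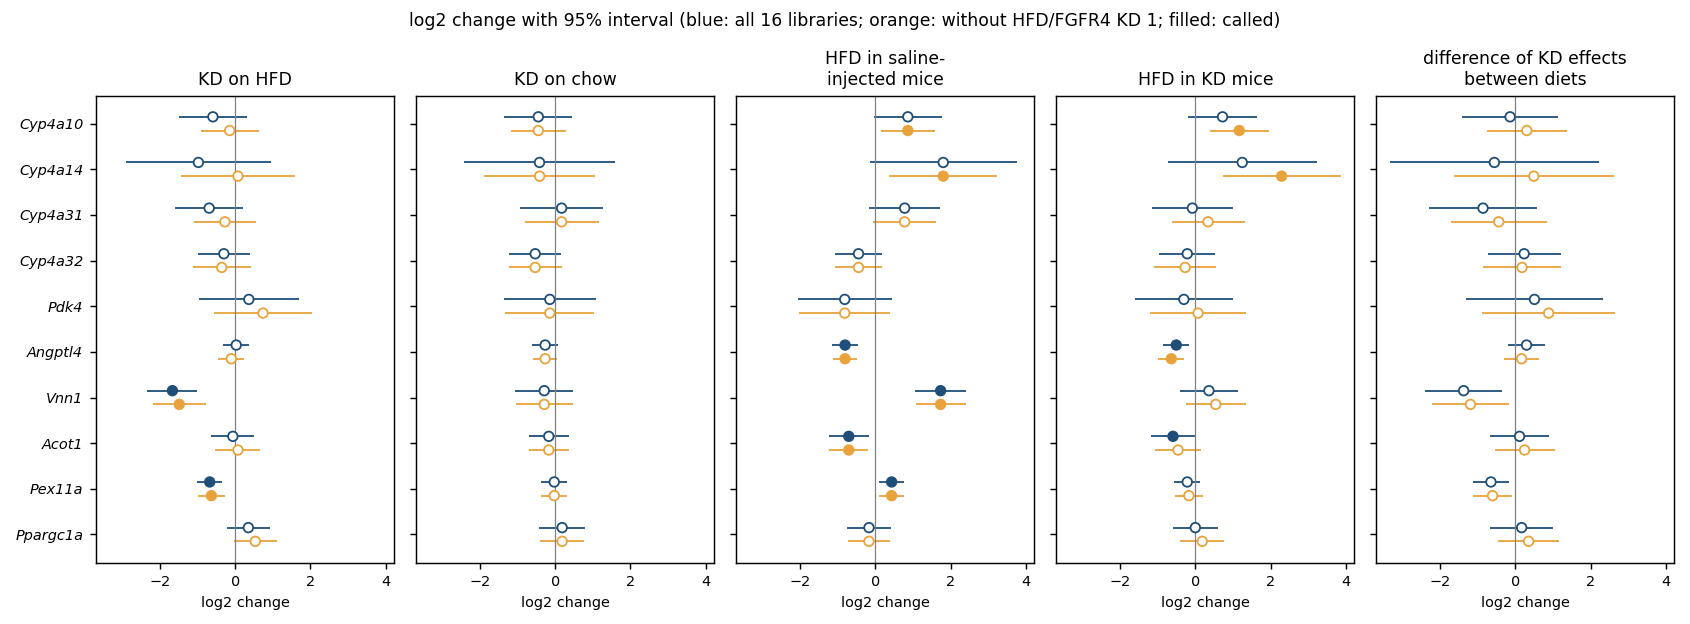
Points give the log2 change of each of the 10 genes in the 5 comparisons with its 95% interval from limma-voom, in blue with all 16 libraries and in orange without HFD/FGFR4 KD 1, and filled points were called. *Vnn1* and *Pex11a* lie left of 0 with KD on HFD in both fits, and the intervals of *Cyp4a14* are the widest.

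A list of 56 other PPARα target genes was set beside these 10. With KD on HFD 14 of the 56 fell and 1 rose, with a median log2 change of -0.25 and 8 of 56 above 0, where 1.64% of all genes fell and 1.50% rose. The falling genes with the smallest p were *Hadhb*, a subunit of the mitochondrial trifunctional protein (-0.55, SE 0.0927, adjusted p 0.0180), *Acsm3*, a medium-chain acyl-CoA synthetase (-0.50, adjusted p 0.0675), *Hsd17b4*, a multifunctional enzyme of peroxisomal β-oxidation (-0.35, adjusted p 0.0790), and *Fitm2*, which helps to form lipid droplets (-0.62, adjusted p 0.0807). The gene that rose was *Acsl3*, an acyl-CoA synthetase of the endoplasmic reticulum and lipid droplets (1.04, adjusted p 0.177). *Hadhb* shares 23.7% of its words with other genes and *Acsm3* 36.8%. Without HFD/FGFR4 KD 1 the fit called 4 lower genes, the 4 just named, and 1 higher, and the median was -0.23. That fit called 1.21% of all genes in either direction. With library totals as the only scaling and all libraries 4 of the 56 were lower and 0 higher, and of all genes 76 were lower and 38 higher.

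On chow the same knockdown was compared with saline. None of the 10 genes was called in limma-voom, none had an unadjusted p under 0.05, and none had groups that did not overlap, where 0.00883% of all genes were called (the gene *Fgfr4*) and 2.52% had groups that did not overlap. DESeq2 and edgeR called none of the 10 either. The median log2 change of the 10 genes was -0.22, with 2 above 0, and that of all genes was 0.00413. *Vnn1* was at 25, 23.7, 64.7 and 32.9 CPM in Chow and at 47.4, 32.5, 19.4 and 16.8 CPM in Chow/FGFR4 KD, with a log2 change of -0.29 (95% interval -1.07 to 0.48). *Pex11a* was at 82.8 ± 13.6 and 81.0 ± 10.1 CPM (-0.03, -0.37 to 0.32). The interval of *Cyp4a14* was far wider, from -2.42 to 1.59.

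Within Chow/FGFR4 KD the libraries differed widely. *Cyp4a14* was at 337.9 and 142.4 CPM in Chow/FGFR4 KD 1 and 2 and at 20.3 and 32.8 CPM in Chow/FGFR4 KD 3 and 4, and *Cyp4a10* at 202.3, 188.1, 84.9 and 47.4 CPM. In Chow, library 3 was highest for both (292.5 and 205.1 CPM). Of the 56 other target genes, none was called with KD on chow, and the median log2 change was -0.10, with 11 of 56 above 0. The genes with the smallest p were *G0s2*, an inhibitor of triglyceride lipase (-1.09, adjusted p 0.976), and *Acsl1*, the main hepatic acyl-CoA synthetase (-0.43, adjusted p 0.976).

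The next test took the effect of KD on HFD minus the effect of KD on chow. None of the 10 genes passed, where 0.0353% of all genes (4) did and 765 had an unadjusted p under 0.05. The largest was *Vnn1*, with a log2 difference of -1.38 (95% interval -2.40 to -0.35, unadjusted p 0.0114, limma-voom adjusted p 0.617), followed among those with an unadjusted p under 0.05 by *Pex11a* at -0.65 (-1.13 to -0.17, unadjusted p 0.0108, limma-voom adjusted p 0.613). The fall of *Vnn1* and *Pex11a* with KD is therefore not shown to differ between HFD and chow. Without HFD/FGFR4 KD 1 the differences were -1.19 and -0.61 (adjusted p 0.827 and 0.802), where 0.0706% of all genes were called. Of the 56 other target genes none was called, and their median was -0.14 with that library and -0.08 without it.

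HFD was then set against chow without siRNA. *Vnn1* and *Pex11a* rose with HFD, *Angptl4* and *Acot1* fell, and *Cyp4a10* and *Cyp4a14* were higher without passing the test. Of all genes 26% were called, 13.3% higher and 12.7% lower, against 4 of 10 here. The median log2 change of the 10 was 0.13, with 5 above 0. Without HFD/FGFR4 KD 1, which is in neither group but enters the estimate of spread, 6 of 10 were called and 26.4% of all genes.

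*Vnn1* was between 91.9 and 138.0 CPM in HFD and between 23.7 and 64.7 CPM in Chow, a 3.33-fold rise (1.74 on the log2 scale, SE 0.320, adjusted p 0.00393). *Pex11a* rose 1.35-fold, from 71.4, 82.4, 102.0 and 75.5 CPM in Chow to 116.4, 91.4, 127.9 and 111.7 CPM in HFD (0.43, SE 0.157, adjusted p 0.0933), with Chow 3 above HFD 2. Both genes that fell with KD on HFD had thus risen with the diet. The comparisons share the 4 HFD libraries, so these values are not independent of each other.

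*Angptl4* was at 165.9, 210.8, 179.9 and 154.8 CPM in Chow and at 98.6, 133.2, 92.6 and 86.0 CPM in HFD, without overlap. It fell 1.74-fold (-0.80 on the log2 scale, SE 0.162, adjusted p 0.0063). *Acot1* was at 22.6, 29, 33.4 and 37.6 CPM in Chow and at 19.8, 14.7, 21.7 and 18.1 CPM in HFD, also without overlap, and fell 1.63-fold (-0.70, SE 0.249, adjusted p 0.0867). With library totals as the only scaling, which moved the median of all genes by 0.28, the log2 change of *Acot1* was -0.43 and its call was lost (adjusted p 0.283), while *Angptl4* kept it. Of the other thioesterases of this family that could be tested, *Acot2*, the mitochondrial one, rose by 1.40 (adjusted p 0.0767) and *Acot4*, a peroxisomal one, by 1.09 (adjusted p 0.0428). *Acot2* shares 29.9% of its words with *Acot1*, so the division of reads between them is uncertain. Mean CPM in Chow and HFD was 30.7 and 18.6 for *Acot1* and 4.31 and 12.5 for *Acot2*, and their sum was not tested.

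*Cyp4a10* was between 264.6 and 299.0 CPM in all HFD libraries and at most 205.1 CPM in Chow. Groups that do not overlap were seen in 4 of the 10 genes (*Cyp4a10*, *Angptl4*, *Vnn1* and *Acot1*) and in 16.1% of all genes. The log2 change of *Cyp4a10* was 0.86 (95% interval -0.03 to 1.76, unadjusted p 0.0579, limma-voom adjusted p 0.211), and that of *Cyp4a14* was 1.81 (-0.14 to 3.75, unadjusted p 0.0670, limma-voom adjusted p 0.229), with Chow 3 (292.5 CPM) above HFD 2 and HFD 4. The estimate of spread in this fit comes from all groups, and the SD of *Cyp4a10* was 18.1 CPM in HFD and 39.9 CPM in Chow but 76.3 and 106.5 CPM in the KD groups. Both genes were called as higher when HFD/FGFR4 KD 1 was left out (adjusted p 0.115 and 0.101), when only Chow and HFD were fitted (0.0108 and 0.0432), without Chow 3, with library quality weights, without the filter and with library totals as the scaling. Of the 8 fits that left out a Chow or HFD library only 1 called each gene, and of 11 other settings only 4 did. With library totals 3967 of all genes were higher and 339 lower. *Cyp4a31* (0.78, adjusted p 0.283), *Cyp4a32* (-0.45, adjusted p 0.359), *Pdk4* (-0.81, adjusted p 0.417) and *Ppargc1a* (-0.17, adjusted p 0.751) did not pass.

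Of the 56 other target genes, 25 rose and 3 fell with HFD, with a median log2 change of 0.30, where 13.3% of all genes rose and 12.7% fell. The rising genes with the smallest p were *Cpt1a*, which lets long-chain fatty acids into mitochondria (0.82, SE 0.132, limma-voom adjusted p 0.00174), *Aldh3a2*, a fatty aldehyde dehydrogenase (1.06, adjusted p 0.0032), *Mgll*, monoglyceride lipase (0.88, adjusted p 0.00465), and *Ucp2*, a mitochondrial carrier (1.50, adjusted p 0.00488). *Acsl4* (-0.61), *Txnip* (-1.01) and *Cpt2* (-0.19) fell. With library totals as the scaling 36 were higher and 0 lower, with 3967 of all genes higher and 339 lower in that fit. Of 21 genes for PPARα, its relatives and coregulators, 2 rose and 4 fell, a share near the 26% of all genes called. *Ppara* itself rose by 0.61 (adjusted p 0.0119) and *Pparg* by 1.05 (adjusted p 0.0719), while the acetyltransferase *Crebbp* (-0.60), the coactivator *Ncoa2* (-0.29) and the liver factors *Creb3l3* (-0.23) and *Hnf4a* (-0.44) fell. With library totals as the scaling 4 of the 21 were higher with HFD and 1 lower. With KD on HFD 1 of these 21 was called, *Ncoa2* (0.27, adjusted p 0.235), and none was without HFD/FGFR4 KD 1. The log2 change of *Ppara* with KD on HFD was -0.26 (adjusted p 0.515), a value chosen after it was seen.

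**Figure D4:**
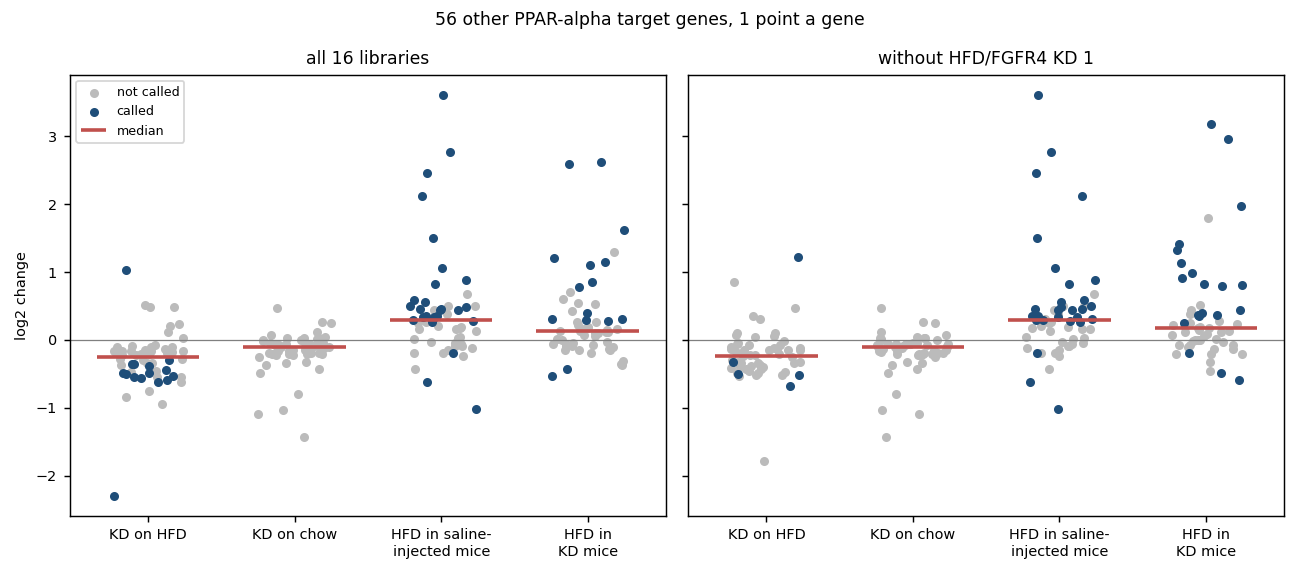
Each point is a gene of the list of 56 other PPARα targets, with its log2 change in 4 comparisons (points spread sideways for clarity), called genes in blue, others in grey and the median as a red line, with all libraries on the left and without HFD/FGFR4 KD 1 on the right. The medians are -0.25 with KD on HFD, -0.10 with KD on chow, 0.30 with HFD in saline-injected mice and 0.13 with HFD in KD mice on the left, and -0.23, -0.10, 0.30 and 0.17 on the right.

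The diet effect was also taken in mice with KD. *Angptl4* and *Acot1* were called as lower, and *Vnn1* and *Pex11a* were not called. Of all genes 20.2% were called, 10.1% in each direction, and groups did not overlap in 11.5% of all genes and in none of the 10. *Angptl4* was at 163.2, 169.9, 145.9 and 113.6 CPM in Chow/FGFR4 KD and at 135.7, 105.1, 87.2 and 91.5 CPM in HFD/FGFR4 KD, a 1.42-fold fall (-0.51 on the log2 scale, SE 0.164, adjusted p 0.100). This call was lost with library totals as the scaling (-0.35). *Acot1* fell 1.51-fold (-0.59, SE 0.272, adjusted p 0.231), and 6 of the 8 fits that left out a library did not call it, the fit without HFD/FGFR4 KD 1 among them (-0.46, adjusted p 0.361). The log2 change of *Vnn1* was 0.36 (95% interval -0.41 to 1.13) and that of *Pex11a* -0.22 (-0.56 to 0.13), and they were 0.54 and -0.17 without HFD/FGFR4 KD 1. The remaining genes had log2 changes of -0.08 (*Cyp4a31*), -0.21 (*Cyp4a32*), -0.30 (*Pdk4*) and -0.0012 (*Ppargc1a*), and of 0.34, -0.27, 0.07 and 0.18 without that library, none of them called.

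Without HFD/FGFR4 KD 1 the calls for the diet in KD mice were other ones, with 22.4% of all genes called. *Cyp4a10* then rose by 1.17 (SE 0.367, adjusted p 0.0739), *Cyp4a14* by 2.29 (SE 0.740, adjusted p 0.0812), and *Angptl4* fell by 0.64 (SE 0.161, adjusted p 0.0323). With that library the log2 change of *Cyp4a10* was 0.72 (adjusted p 0.364) and that of *Cyp4a14* 1.25 (adjusted p 0.485). Of the 56 other target genes 13 rose and 2 fell with it, and 17 rose and 3 fell without it.

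The other Cyp4 genes were described from a list of 16, of which 9 could be tested. With HFD in saline-injected mice 5 fell and none rose, with a median log2 change of -0.46, where 12.7% of all genes fell. *Cyp4a12a*, the male-biased arachidonic acid hydroxylase, fell by 2.07 (SE 0.389, limma-voom adjusted p 0.00433) and so did its near copy *Cyp4a12b* (-4.56, SE 0.699, adjusted p 0.0013), while *Cyp4f14* (-0.89) and *Cyp4v3* (-0.45) fell less. In KD mice 4 fell with HFD, where 10.1% of all genes fell. Without HFD/FGFR4 KD 1 it was 6, where 22.4% of all genes were called in either direction. With library totals as the scaling 3 were lower in saline-injected and in KD mice. Of all 11324 genes 339 and 391 were then lower, and 3967 and 1888 higher. *Cyp4a12b* was at 0.443, 15.3, 1.87 and 18.1 CPM in HFD and at 66.8, 25.6, 25.8 and 25.6 CPM in HFD/FGFR4 KD, without overlap. It was called as higher with KD on HFD, with a log2 change of 3.20 (SE 0.719, adjusted p 0.0807), and of 2.86 without HFD/FGFR4 KD 1 (adjusted p 0.138). This change is fitted to log values, in which the 2 HFD libraries near 0 weigh more than in a ratio of mean CPM. *Cyp4a12a* and *Cyp4a12b* share 62.2% and 62.9% of their words with each other, so the division of reads between them is uncertain. *Cyp4a12a* was not called with KD on HFD. Mean CPM in HFD and HFD/FGFR4 KD was 84.8 and 114.3 for *Cyp4a12a*, and 8.93 and 35.9 for *Cyp4a12b*. Among 12 tested relatives of the other genes, 5 rose with HFD, among them *Vnn3* (0.83) beside *Acot4*, *Acot2* and *Pdk2* (0.33), and none fell, where 13.3% of all genes rose. With KD on HFD *Angptl8*, which encodes a secreted protein induced by feeding, was higher (0.99, adjusted p 0.228) and *Pdk2* lower (-0.33, adjusted p 0.203). Of all genes 1.50% were higher and 1.64% lower. Neither *Angptl8* nor *Pdk2* was called without HFD/FGFR4 KD 1.

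Other measures moved with these comparisons. Of 16 tested fasting genes driven by CREB, FOXO1 and glucocorticoids, 9 fell and 2 rose with HFD in saline-injected mice (median -0.85), where 12.7% of all genes fell and 13.3% rose. Among those that fell were *Tat* (-1.43), *G6pc* (-1.84), *Irs2* (-1.09) and *Igfbp1* (-2.23), and the 2 that rose were *Fbp1* (0.55) and *Fkbp5* (1.06). None was called with KD on HFD (median 0.33). The clock genes *Arntl*, *Npas2*, *Clock*, *Nfil3* and *Cry1* all fell with HFD, such as *Clock* (-1.08) and *Arntl* (-2.09). Of 9 clock genes that run at other hours (*Dbp*, *Tef*, *Hlf*, *Per2*, *Per3*, *Nr1d1*, *Nr1d2*, *Ciart* and *Bhlhe41*), 7 could be tested and 6 rose, such as *Dbp* (4.32) and *Per3* (2.65). With KD on HFD 3 genes of the first set rose (*Arntl*, *Clock* and *Nfil3*) and 2 of the 7 others fell (*Per2* and *Dbp*). Of all genes 1.50% rose and 1.64% fell. Without HFD/FGFR4 KD 1 the counts were 1 and 0, where 1.21% of all genes were called. The summed level of the set with *Arntl* was from 145.6 to 190.6 CPM in Chow, 150.1 to 236.0 in Chow/FGFR4 KD, 51.5 to 76.1 in HFD and 87.9 to 135.3 in HFD/FGFR4 KD, where library 1 had the highest. *Angptl4*, *Pdk4*, *Ppargc1a* and other PPARα targets are known to follow feeding and the clock, and the part of either in the results above was not tested.

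**Figure D5:**
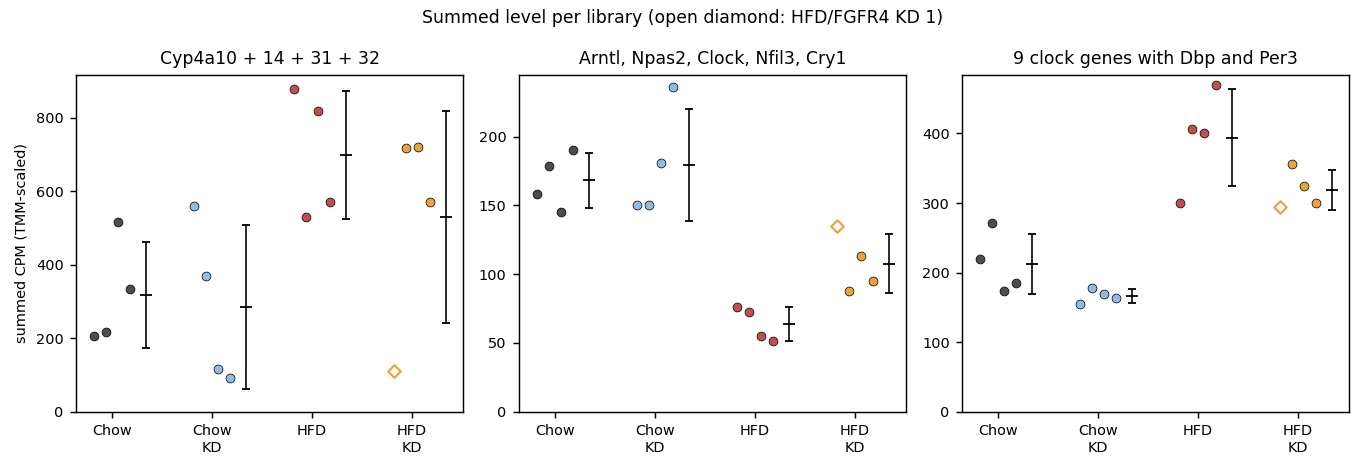
Points show per library the summed CPM of the 4 Cyp4a genes, of *Arntl*, *Npas2*, *Clock*, *Nfil3* and *Cry1*, and of the 9 clock genes with *Dbp* and *Per3*, with the group mean ± SD (n = 4) and HFD/FGFR4 KD 1 as an open diamond. The sum with *Arntl* is lowest in HFD (51.5 to 76.1 CPM), and HFD/FGFR4 KD 1 is lowest in its group for Cyp4a (110.6 CPM) and highest for the sum with *Arntl* (135.3 CPM).

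Markers of other cells were compared in the same way. The 7 Kupffer cell and macrophage markers summed to between 42.0 and 48.3 CPM in Chow, 53.9 and 73.9 in Chow/FGFR4 KD, 76.2 and 150.1 in HFD, and 67.9 and 131.1 in HFD/FGFR4 KD, with none at 0 in any library. The 6 stellate cell and fibroblast markers were at 91.9 to 133.5 CPM in Chow and 150.6 to 272.7 in HFD, and at 78.3 to 129.3 and 107.1 to 185.2 in the KD groups. The 7 adipocyte markers summed to 3.66 to 15 CPM in Chow, 3.47 to 7.73 in Chow/FGFR4 KD, 25.9 to 32.7 in HFD and 11.6 to 20.4 in HFD/FGFR4 KD. Their sum was mostly *Cfd* and *Fabp4*, with *Lep* and *Adig* at 0 in all 16 libraries and *Adipoq* and *Plin1* at 0 in 11. Like *Vnn1*, the adipocyte sum was highest in the 4 HFD libraries, and the part of such cells in the results was not tested.

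How the 10 genes varied from mouse to mouse was described by Pearson's r of log2 CPM, as deviations from the group means over 16 libraries, which share scaling and depth. *Cyp4a10* and *Cyp4a14* varied together (r = 0.89), as did *Cyp4a10* and *Acot1* (0.87), *Cyp4a10* and *Vnn1* (0.82) and *Vnn1* and *Pex11a* (0.78). Over the 15 libraries without HFD/FGFR4 KD 1 these were 0.81, 0.91, 0.84 and 0.77. *Acot1* thus followed *Cyp4a10* within groups, although its estimated level fell with HFD while *Cyp4a10* was higher there without passing the test. The share of *Cyp4a14* in the Cyp4a sum was from 17.3% to 64.6%. The siRNA libraries held the lowest sums (92.6, 110.6 and 117.2 CPM) as well as the highest share (HFD/FGFR4 KD 3).

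For each gene the most similar gene outside the 10 was taken from those with a mean of at least 1 CPM, over the 16 libraries and then over deviations from group means. *Vnn1* was most like *Eci1* (r = 0.97), an enoyl-CoA isomerase of mitochondrial β-oxidation, and within groups like *Acadl* (0.95), the long-chain acyl-CoA dehydrogenase. *Cyp4a14* was most like *Abcd2*, a peroxisomal transporter of fatty acyl-CoA, by both measures (0.91 and 0.94), and *Cyp4a10* like *Pctp* (0.94), the phosphatidylcholine transfer protein, and within groups *Mpc2* (0.94), a subunit of the mitochondrial pyruvate carrier. *Pex11a* was most like *Raet1d* (0.91 and 0.92) and *Angptl4* like the ribosomal protein genes *Rpl7a* (0.93) and *Rpl36al* (0.88). For *Acot1* they were *Arl4a* (0.89) and *Txndc16* (0.92), for *Pdk4* *Mpzl1* (0.85) and *Gm2a* (0.93), for *Ppargc1a* *Kdm7a* by both (0.87), for *Cyp4a31* *Hunk* (0.85) and *Tmtc3* (0.89), and for *Cyp4a32* *CT010467.1* (0.89) and *Slc25a34* (0.88). Each is the highest of the values over all other tested genes, so these are descriptions. Over the 15 libraries without HFD/FGFR4 KD 1 the same pairs had r from 0.79 (*Cyp4a31* and *Hunk*) to 0.97 (*Cyp4a14* and *Abcd2*).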

How the data were processed

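The deposited table holds estimated counts per gene that the authors made from liver RNA reads (KAPA mRNA HyperPrep) with fastp, kallisto and tximport on GRCm38. The methods of the study name HTG EdgeSeq instead, and this difference is not resolved here. The transcriptome release is not given in the sources used here. Reads that fit several transcripts are divided by estimate, which bears on near copies. Limma-voom (limma 3.58.1, edgeR 4.0.16, R 4.3.3) was fitted to TMM-scaled counts of all 16 libraries with a mean per group, and genes under 1 CPM in more than 4 libraries were left out, following the study. p-values were adjusted over 11324 genes. The code was tested on simulated counts. Alternatives were other scalings, filters, edgeR and DESeq2 1.42.0 tests (counts rounded for DESeq2), quality weights, a replicate block and leaving out each library; for the lists, other scalings and leaving out HFD/FGFR4 KD 1 were chosen after seeing the data. Levels are CPM. Motifs and shared words were searched with Python 3.11.15. The 10 genes and all lists were chosen with earlier results of these data known. Of each list at most 4 rising and 4 falling called genes with the smallest p are named per comparison, or at most 2 genes where none was called. Libraries of a group are mice, and no pair of them held the same counts.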

Additional observations from a re-analysis of the deposited data

Results flagged for a closer look

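Among the 10 genes, the level of *Cyp4a32* in HFD 4 was far from the rest of its group. It was 21.49 CPM, against 14.6 CPM in the next highest HFD library, a gap of 0.836 of the range of the group and past Dixon's critical value for 4 samples. This was 1 of 40 groups of values looked at, of which chance would mark about 2. Since *Cyp4a32* shares 62.8% of its 31-base words with other genes, its level also depends on how reads were divided.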

How the results depend on the processing

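The fall of *Vnn1* with KD on HFD was called in every alternative run (log2 change -1.94 to -1.49 without a library, -1.75 to -1.59 in the other settings). At an adjusted p under 0.05 the number called was 1 with KD on HFD (*Vnn1*), 2 with HFD in saline-injected mice and 0 with HFD in KD mice. Without a library, 1 to 2 of the 10 were called with KD on HFD, 4 to 6 with HFD and 1 to 3 with HFD in KD mice. With HFD in KD mice, library totals gave 0 calls, and upper-quartile scaling, no filter and a fit of the groups compared gave 1 each. That last fit gave 7 with HFD in saline-injected mice. The share of all genes called in that fit is not given here, so its count cannot be set against all genes. The number of all genes called also changed between the alternatives, as described below for some of them. These counts alone therefore do not show whether the 10 genes were called more often than other genes. Of 1020 log2 changes under alternatives 936 kept direction and side of the threshold, 14 lost a call, 19 gained one and 51 turned, none of a called value. The causes were not tested.

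The values that turned in sign with library totals were the log2 change of Angptl4, KD on HFD (-0.04453), the log2 change of Pex11a, KD on chow (0.01973), *Ppargc1a*, HFD in saline-injected mice (0.08717), *Cyp4a31* and *Ppargc1a*, HFD in KD mice (0.03085 and 0.1374), and *Acot1*, difference of KD effects (-0.008507). The log2 change of Ppargc1a, HFD in KD mice was 0.0433 with upper-quartile scaling, 0.006547 without *Gm42418* and *Lars2*, 0.05003 in edgeR, 0.05492 in DESeq2, 0.004904 without the filter and 0.01016 with quality weights. With KD on chow, *Cyp4a14* was 0.009265 in edgeR, and *Pdk4* and *Pex11a* were 0.02197 and 0.04222 with quality weights. Without a library, KD on HFD ran from -1.421 to 0.07434 for *Cyp4a14*, -0.0847 to 0.7901 for *Pdk4*, -0.1032 to 0.1606 for *Angptl4* and -0.1703 to 0.07391 for *Acot1*. KD on chow ran from -1.151 to 0.1662 for *Cyp4a14*, -0.3001 to 0.4482 for *Cyp4a31*, -0.5529 to 0.1344 for *Pdk4*, -0.5959 to 0.04003 for *Vnn1*, -0.356 to 0.09638 for *Acot1* and -0.09467 to 0.08198 for *Pex11a*. HFD in saline-injected mice ran from -0.2983 to 0.06088 for *Ppargc1a*. HFD in KD mice ran from -0.3877 to 0.3904 for *Cyp4a31*, -0.4131 to 0.1287 for *Cyp4a32*, -0.7528 to 0.07152 for *Pdk4* and -0.1572 to 0.1833 for *Ppargc1a*. The difference of KD effects ran from -0.5455 to 0.3029 for *Cyp4a10*, -1.142 to 0.4885 for *Cyp4a14*, -0.1576 to 0.2948 for *Acot1* and -0.06194 to 0.3507 for *Ppargc1a*.

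Deviations of same-numbered libraries had r from -0.29 to 0.24, which cannot show whether the numbers pair mice. The fit with the replicate block called 2, 0, 4, 2 and 0 of the 10 genes in the 5 comparisons, as without it. The number of all genes called, KD on HFD, was 356, against 114 under library totals, 776 with quality weights, 31 at an adjusted p under 0.05 and from 89 (without HFD 3) to 622 (without HFD 2) without a library. The number of all genes called, HFD in saline-injected mice, was 2939, against 5324 without the filter and 1042 at an adjusted p under 0.05. The number of all genes called, HFD in KD mice, was 2293, against 351 at an adjusted p under 0.05 and down to 1189 (without HFD/FGFR4 KD 4). The number of all genes called, difference of KD effects between diets, was 4, and from 0 (library totals) to 54 (DESeq2) under alternatives, and that with KD on chow was 1, and at most 3 (library totals). The groups hold 4 mice each, and *Cyp4a31*, *Pdk4* and *Ppargc1a* rest on counts as low as 8.24, 12.3 and 20 in a library, which limits what could be seen for them.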
